A study of Drosophila melanogaster with 10 samples.

Results

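Eye-antenna discs that expressed an activated fragment of the Notch receptor were compared with discs that combined overexpression of the Notch ligand Delta with knockdown of COX7a in Drosophila melanogaster. The comparison used the 2 arrays titled with the Notch fragment and the 2 titled with Delta and COX7a RNAi, 4 of the 10 arrays of the series. The eye-antenna disc is the larval epithelium that forms the adult eye, the antenna and much of the head. The Notch intra discs were ey-Gal4/UAS-Notch[intra2]. The Delta with COX7a RNAi discs were ey-Gal4, UAS-Delta/UAS-COX7a-RNAi, with the hairpin line v106661. The other 3 genotypes served as reference points, namely ey-Gal4/UAS-GFP (GFP), ey-Gal4/UAS-COX7a-RNAi with the same hairpin line (COX7a RNAi) and ey-Gal4, UAS-Delta/UAS-GFP (Delta), each with 2 arrays. All 5 genotypes carried ey-Gal4, which drives UAS transgenes from an enhancer of the eye selector gene eyeless, so the transgenes act in cells with a history of that driver and each sample mixes them with any cells outside it. The compared genotypes differ in 3 transgenes at once, and Notch intra carried 1 UAS construct against 2 in Delta with COX7a RNAi. Discs of larvae early in the last instar, 96 h after egg laying, were pooled at 20 to 30 per sample, per the labels.

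Delta on one cell binds the Notch receptor on its neighbour. The receptor is then cut, and its intracellular part enters the nucleus, joins the DNA-binding protein Su(H) and switches on target genes such as those of the Enhancer of split complex. The intracellular fragment expressed alone needs neither ligand nor cleavage, so Notch intra and Delta raise the same pathway at different steps. In the eye disc Notch signalling sets up a growth organiser at the dorsoventral midline, partly through the transcription factor gene eyg, and later refines the pattern of photoreceptors. The product of COX7a is a small nuclear-encoded subunit of complex IV, the mitochondrial oxidase that passes electrons to oxygen. The gene has the symbol COX7A in the probe annotation. The series title sets its loss beside gain of Notch function, and the question here is where the combined genotype resembles strong Notch activation and where it differs.

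Values are deposited log2 expression levels of 1 probe set per gene, and 8702 genes were tested after leaving out those at background on nearly all arrays. Levels at or under 4.66 log2 units are called under the floor, and a difference against a group under the floor is less certain. Unless stated otherwise, a difference is the mean of the 2 Notch intra arrays minus the mean of the 2 Delta with COX7a RNAi arrays on the log2 scale, ± the standard error of limma's fit over all 10 arrays. A gene was called at a limma adjusted p under 0.05, Benjamini-Hochberg over the 8702 genes. The number of arrays limits the precision. Eye genes of the disc were well above the floor on all 10 arrays, with ey between 11.19 and 11.87, eya between 12.17 and 12.53 and dac between 12.62 and 12.88. The antennal genes Dll and ss ranged more widely, from 7.06 to 9.99 and from 3.93 to 8.71, and ss was under the floor on the 2 Notch intra arrays.

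Over all tested genes the combined genotype lay closer to GFP, Delta and COX7a RNAi than to Notch intra. The root mean square difference between a Notch intra and a Delta with COX7a RNAi array was 0.42 to 0.44 log2 units (mean 0.431, 4 array pairs). Delta with COX7a RNAi arrays differed from COX7a RNAi arrays by a mean of 0.256, from Delta arrays by 0.287 and from GFP arrays by 0.317. Notch intra arrays differed from Delta arrays by a mean of 0.396, from GFP arrays by 0.430 and from COX7a RNAi arrays by 0.453. Replicates of a genotype differed by 0.204 to 0.239. Every distance from a Notch intra array to an array of another genotype, 0.367 to 0.479, was therefore larger than every distance among the other 4 genotypes, 0.233 to 0.343.

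**Figure D1:**
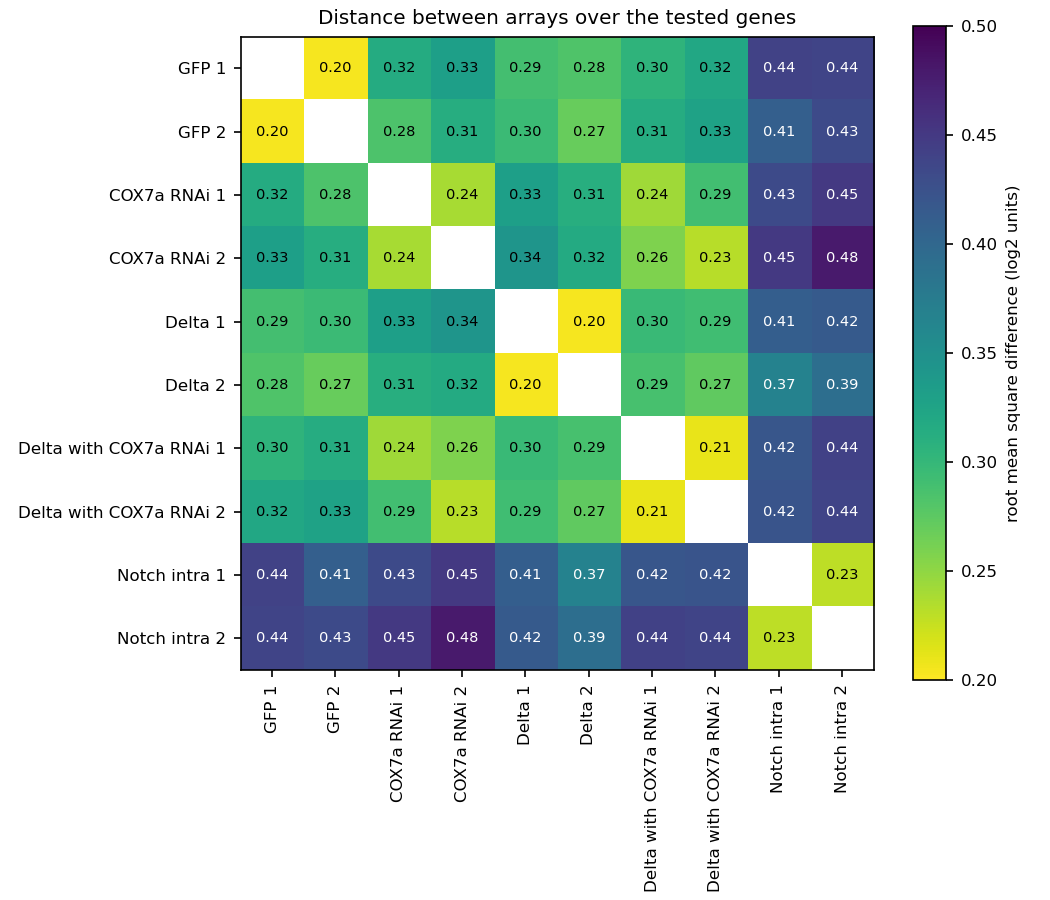
Root mean square log2 difference between each pair of the 10 arrays over the 8702 tested genes, with the value in each cell and genotype and replicate on both axes. The 2 Notch intra arrays stand 0.42 to 0.44 from the Delta with COX7a RNAi arrays, while the latter stand 0.23 to 0.29 from the COX7a RNAi arrays.

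Of the 8702 genes, 1373 were called between the genotypes, which is 15.8% of those tested. Higher levels in Notch intra were called for 570 genes (6.55%) and higher levels in Delta with COX7a RNAi for 803 genes (9.23%). These 3 percentages are the background against which the counts in gene lists below are read. A 2-fold difference or more was reached by 65 genes higher in Notch intra and 197 higher in Delta with COX7a RNAi, and a 4-fold one by 21 and 33. The share of calls that were higher in Notch intra, 41.5%, depended on how arrays were scaled, being 51.0% (757 against 727 genes) after a second quantile normalization and 53.3% (784 against 687) after centring each array on its median. Leaving out 1 Notch intra array at a time lowered the count to 700 (without replicate 1) and 668 (without replicate 2), and 514 genes, 181 higher in Notch intra and 333 higher in Delta with COX7a RNAi, were called in each of the 10 fits with 1 array removed. Genes described as called throughout are among these 514. Median differences quoted for lists compare with a median of 0.02 over all tested genes, or 0.03 and 0.05 with the other scalings.

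**Figure D2:**
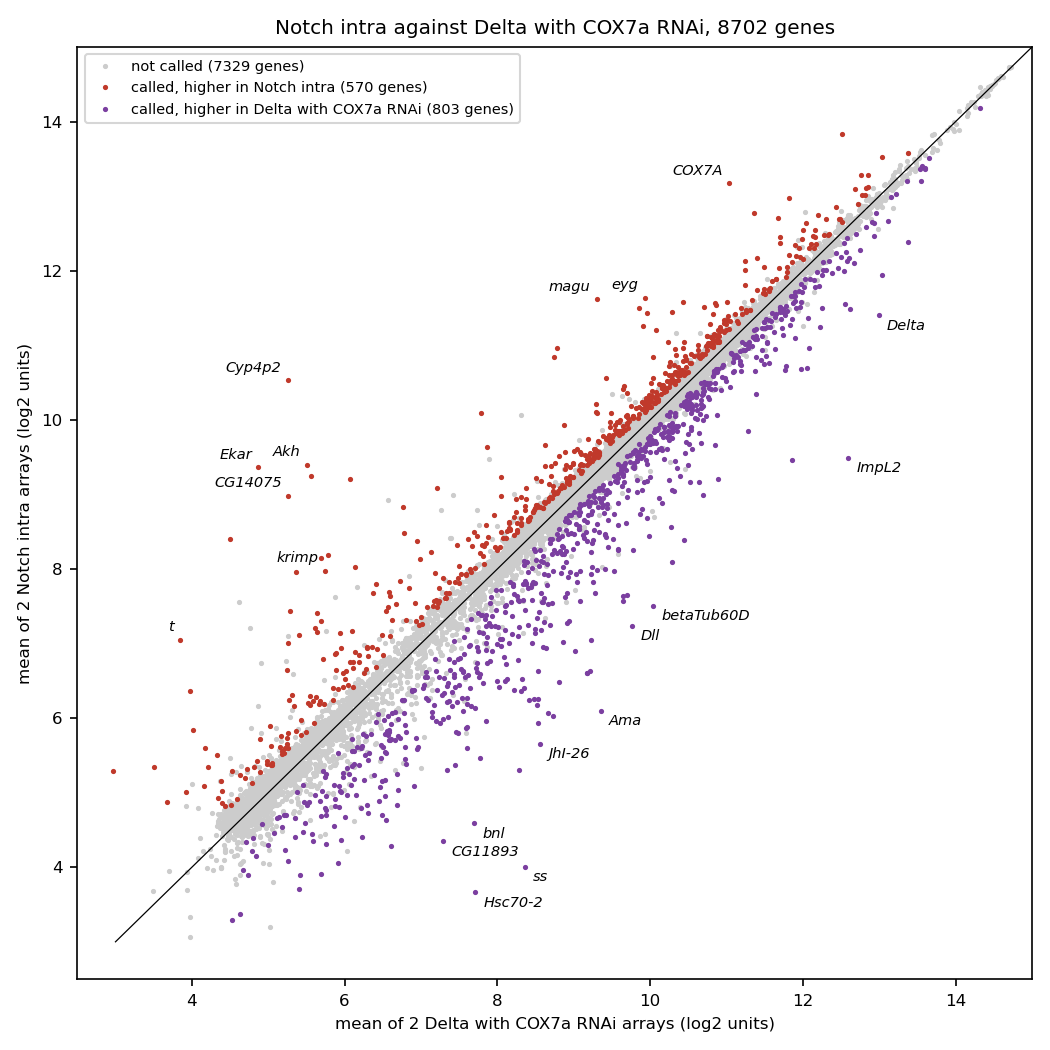
Mean log2 level in Notch intra (vertical axis) against Delta with COX7a RNAi (horizontal axis), 2 arrays each, for the 8702 tested genes, with the line of equal levels. Red marks the 570 genes called higher in Notch intra and purple the 803 called higher in Delta with COX7a RNAi, and a few named genes are labelled, among them Cyp4p2 and ss at opposite sides.

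The gene targeted by the hairpin and the gene supplied as a transgene differed as the labels state. COX7A was at 13.17 and 13.17 in Notch intra and 10.88 and 11.20 in Delta with COX7a RNAi, a difference of 2.14 ± 0.09, adjusted p = 6.08e-06. The Notch intra level was near those of GFP (13.41 and 13.32) and Delta (13.21 and 13.29), and the COX7a RNAi arrays read 10.50 and 10.54. Delta mRNA was at 11.35 and 11.46 in Notch intra and 13.26 and 12.72 in Delta with COX7a RNAi (-1.59 ± 0.15, adjusted p = 0.000334), with means of 11.18 in GFP, 11.16 in COX7a RNAi and 13.14 in Delta. A second Delta probe set differed by only -0.22 and was not called (limma adjusted p = 0.105). Where the probes lie relative to the transgene was not used here. The Notch gene itself had no probe set assigned to it alone and was not analysed here.

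Several Notch target genes were called higher in Notch intra than in the combined genotype. In the Enhancer of split complex, which encodes the transcriptional repressors and small Bearded-family proteins that respond most directly to Notch, 4 of 8 tested genes were called higher in Notch intra and 0 lower, with a median difference of 0.80. All 8 had a positive difference. E(spl)m2-BFM was at 12.78 and 12.76 in Notch intra and 11.16 and 11.56 in Delta with COX7a RNAi (1.41 ± 0.17, adjusted p = 0.00124), with means of 10.52 in GFP, 10.65 in COX7a RNAi and 11.53 in Delta. E(spl)m3-HLH, a repressor of the hairy-related class, was at 12.97 and 12.98 in Notch intra and 11.74 and 11.90 in Delta with COX7a RNAi (1.16 ± 0.06, adjusted p = 1.36e-05), with means of 11.39 in GFP, 11.34 in COX7a RNAi and 12.03 in Delta. For both genes the Notch intra arrays were the highest of the series, and the combined genotype stood between GFP and Notch intra, near Delta alone. E(spl)mbeta-HLH differed by 0.89 ± 0.15, adjusted p = 0.00652 and lost its call without Notch intra replicate 2 (adjusted p = 0.0549). E(spl)m5-HLH differed by 0.59 ± 0.15, adjusted p = 0.0358, with the call lost on removing any of 4 arrays, namely either Delta array, Delta with COX7a RNAi replicate 1 or Notch intra replicate 1 (adjusted p of up to 0.192).

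The uncalled members of the complex were E(spl)m7-HLH (0.84 ± 0.29, adjusted p = 0.0896), E(spl)m4-BFM (0.76 ± 0.27, adjusted p = 0.0951), E(spl)malpha-BFM (0.69 ± 0.46, adjusted p = 0.354) and E(spl)mdelta-HLH (0.52 ± 0.35, adjusted p = 0.358). Their standard errors were 0.27 to 0.46, above the 0.06 to 0.17 of the 4 called genes. The summed level of the 8 genes was 14.95 and 14.96 log2 units in Notch intra, 13.73 and 14.25 in Delta with COX7a RNAi, 14.14 and 14.21 in Delta, 13.23 and 13.84 in COX7a RNAi and 13.38 and 13.47 in GFP. On this scale the combined genotype overlapped both Delta and COX7a RNAi and lay below both Notch intra arrays.

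Of 5 other Notch-regulated genes, 2 were called higher and 1 lower in Notch intra. The Pax gene eyg, needed for growth of the eye disc downstream of Notch, was at 11.55 and 11.72 in Notch intra and 9.94 and 9.92 in Delta with COX7a RNAi, a 3.28-fold difference (1.71 ± 0.08, adjusted p = 1.08e-05), with means of 8.94 in GFP, 8.97 in COX7a RNAi and 9.90 in Delta. The repressor gene dpn was at 11.60 and 11.30 in Notch intra and 10.38 and 10.20 in Delta with COX7a RNAi (1.16 ± 0.13, adjusted p = 0.0007), with means of 9.43 in GFP, 9.35 in COX7a RNAi and 10.27 in Delta. Delta and the combined genotype had like levels of both genes, and Notch intra was higher on both arrays. The zinc finger gene klu differed by 0.40 ± 0.18, adjusted p = 0.164. It was at 8.80 and 8.57 in Notch intra and 8.20 and 8.37 in Delta with COX7a RNAi. The klu levels were 7.89 and 7.87 in Delta, 7.465 and 8.08 in COX7a RNAi and 7.78 and 7.69 in GFP. For this gene both combined arrays thus lay above both Delta arrays. Neither klu nor Hey was called. Only ct, which encodes a homeodomain protein and is also an antennal gene, was lower in Notch intra (-0.62 ± 0.16, adjusted p = 0.0343). The ct call did not survive removal of any 1 of 6 arrays (adjusted p of up to 0.149), namely either GFP, either Delta with COX7a RNAi or either Notch intra array. A second ct probe set differed by -1.07 (adjusted p = 0.0032) and another, near background, by 0.04.

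**Figure D3:**
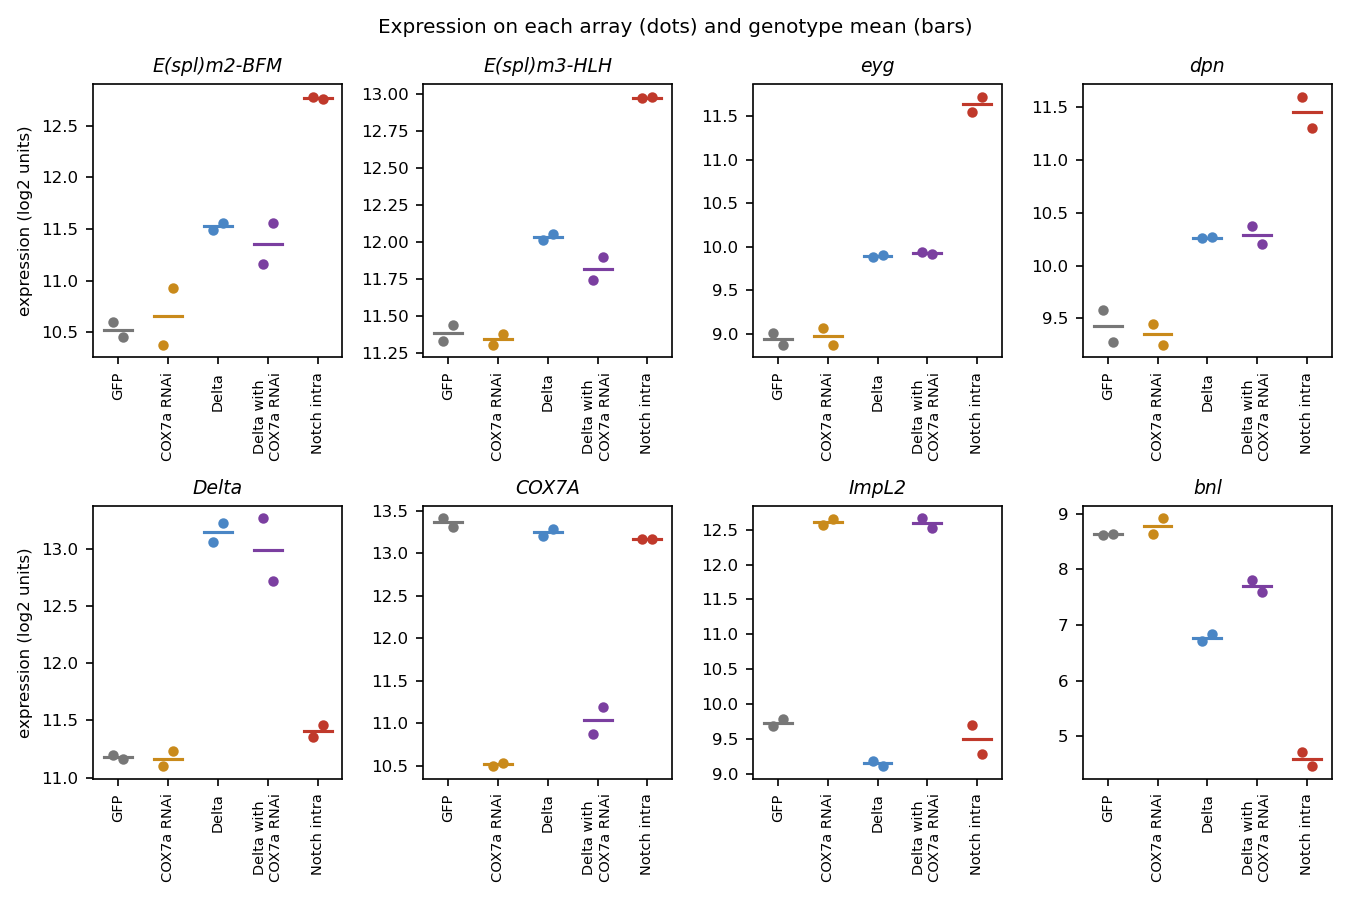
Log2 level of 8 genes in each genotype, with a dot per array, a bar for the mean of 2 arrays and a separate vertical scale per gene. The Notch targets eyg, E(spl)m3-HLH, dpn and E(spl)m2-BFM are highest in Notch intra, COX7A is low in both genotypes with the hairpin, ImpL2 is high in the same genotypes, and bnl is lowest in Notch intra at 4.72 and 4.46.

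Genes of the Notch pathway itself were called at a share near that of all tested genes. Of 16 tested ligand, receptor-processing and nuclear components, 0 were called higher and 3 lower in Notch intra (18.8%, against 15.8% of all genes), with a median difference of 0.01. Beside Delta these were fng, which encodes a glycosyltransferase that tunes the receptor's choice of ligand (-0.47 ± 0.08, adjusted p = 0.00608), and neur, which encodes a ubiquitin ligase that activates Delta (-0.44 ± 0.10, adjusted p = 0.0195). The neur call was lost without Delta with COX7a RNAi replicate 2 or either Notch intra array (adjusted p of up to 0.108). For the other 13 genes, among them mam, H, Psn, kuz, dx and numb, the 95% intervals of the difference ran from -0.25 to 0.34. These genes were called in neither direction.

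Among genes called throughout, the 12 furthest above the combined genotype in Notch intra had diverse known roles. Cyp4p2, a cytochrome P450 gene, was at 10.40 and 10.66 in Notch intra and 5.34 and 5.17 in Delta with COX7a RNAi, a 38.7-fold difference (5.27 ± 0.12, adjusted p = 3.99e-07). Its paralogue Cyp4p1, whose probes may share some of this signal, was at 9.22 and 9.28 in Notch intra and 5.62 and 5.49 in Delta with COX7a RNAi (3.69 ± 0.18, adjusted p = 1.14e-05). For Cyp4p2 the other 3 genotypes had means of 5.21 in GFP, 5.27 in COX7a RNAi and 5.09 in Delta, so only the Notch intra arrays were high. Ekar, a glutamate receptor subunit gene, was at 9.04 and 9.70 in Notch intra and 4.81 and 4.92 in Delta with COX7a RNAi (4.50 ± 0.29, adjusted p = 5.42e-05). The gene t (tan), whose enzyme frees dopamine and histamine from their conjugates, was at 6.79 and 7.31 in Notch intra and 3.81 and 3.89 in Delta with COX7a RNAi (3.20 ± 0.18, adjusted p = 2.4e-05), and under the floor in the 4 other genotypes. CG10621 (2.39 ± 0.10) and CG15236 (2.32 ± 0.16) were likewise under the floor outside Notch intra. The filter asked for only 2 arrays above the floor, so the 2 Notch intra arrays alone could bring such genes into the test.

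The list continued with sit, a fatty acid elongase gene (2.60 ± 0.12, adjusted p = 8.5e-06), CG15905 (2.40 ± 0.21, adjusted p = 0.000222), magu, which encodes a secreted modulator of BMP signalling (2.32 ± 0.08, adjusted p = 2.9e-06), and krimp, a gene of the germline piRNA pathway (2.23 ± 0.12, adjusted p = 1.4e-05). For magu the levels were 11.57 and 11.67 in Notch intra and 9.23 and 9.36 in Delta with COX7a RNAi, with means of 9.01 in GFP, 9.37 in COX7a RNAi and 9.13 in Delta. The krimp arrays stood at 7.89 and 8.07 in Notch intra and 5.90 and 5.59 in Delta with COX7a RNAi, against a mean of 6.47 in GFP. Akh, which encodes adipokinetic hormone, and CG14075 completed these 12. They are described with the ring gland markers and with the genes called in COX7a RNAi against GFP. The larger differences of jhamt and Cpr67Fa2, whose calls were not kept throughout, are given further on.

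At the other end stood genes of appendage patterning, branching signals and stress. The antennal selector gene ss, which specifies distal antenna, was at 4.09 and 3.93 in Notch intra and 8.10 and 8.62 in Delta with COX7a RNAi, a difference of -4.35 ± 0.49, adjusted p = 0.000774, and its mean in GFP was 7.96. Dll, the homeobox gene of distal appendages, was at 7.42 and 7.06 in Notch intra and 9.55 and 9.99 in Delta with COX7a RNAi (-2.53 ± 0.27, adjusted p = 0.000642), with means of 9.70 in GFP, 9.39 in COX7a RNAi and 9.30 in Delta. Other Dll probe sets differed by -3.06 and, near background, by -0.87. The gene bnl, the FGF ligand that guides tracheal branches, was at 4.72 and 4.46 in Notch intra and 7.80 and 7.59 in Delta with COX7a RNAi (-3.10 ± 0.13, adjusted p = 6.08e-06) with means of 8.63 in GFP, 8.78 in COX7a RNAi and 6.77 in Delta. The weaker bnl probe sets differed by -0.25 (uncalled) and -0.78. Both ss and bnl were under the floor in Notch intra.

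Among the 12 genes of lowest difference that were called throughout, 7 had also been called higher in COX7a RNAi than in GFP. Of all 803 genes called lower in Notch intra, 173 (21.5%) had, against 265 of all 8702 tested genes. Hsc70-2, a heat shock cognate gene, was at 3.76 and 3.58 in Notch intra and 7.68 and 7.75 in Delta with COX7a RNAi (-4.05 ± 0.22, adjusted p = 1.77e-05), and ImpL2, whose secreted product binds and blocks insulin-like peptides, at 9.71 and 9.28 in Notch intra and 12.66 and 12.52 in Delta with COX7a RNAi (-3.10 ± 0.12, adjusted p = 4.6e-06). The others were CG11893 (-2.94 ± 0.33, adjusted p = 0.000733), JhI-26 (-2.90 ± 0.25, adjusted p = 0.00023), the P450 gene Cyp6a20 (-2.69 ± 0.32, adjusted p = 0.00106), the trehalose transporter gene Tret1-1 (-2.57 ± 0.29, adjusted p = 0.00077) and twz (-2.57 ± 0.24, adjusted p = 0.000361). Hsc70-2 and CG11893 were under the floor in Notch intra, GFP and Delta. The remaining members were Ama, which encodes a secreted adhesion protein of the immunoglobulin family (-3.25 ± 0.58, adjusted p = 0.00733), and betaTub60D, a beta-tubulin gene (-2.54 ± 0.34, adjusted p = 0.00172). For betaTub60D the other genotypes had means of 9.74 in GFP, 10.002 in COX7a RNAi and 9.77 in Delta, so only Notch intra was low.

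The comparison of COX7a RNAi with GFP was used to describe which differences follow the hairpin. Its group means share no array with those of Notch intra and the combined genotype. Both comparisons, and that of Delta with GFP below, used the same error per gene, pooled over the arrays of all genotypes. A gene with a small pooled error is thus more easily called in each, and calls shared between comparisons are not independent evidence. COX7a RNAi against GFP called 394 genes (4.53% of 8702), 265 higher and 129 lower with the hairpin. Of the 265, 173 (65.3%) were also called higher in Delta with COX7a RNAi than in Notch intra, 14 were called higher in Notch intra and 78 were not called, with a median difference of -0.36. Of the 129, 41 (31.8%) were higher in Notch intra and 21 (16.3%) higher in Delta with COX7a RNAi, with a median of 0.09. The shares over all tested genes were 6.55% higher in Notch intra and 9.23% higher in Delta with COX7a RNAi. Across the 394 genes the 2 sets of differences had a Pearson's r of -0.45, or -0.44 without COX7A, as a description across genes that are not independent. The count of 394 fell to 127 without GFP replicate 1 and 158 without GFP replicate 2. Seen from the other side, 570 of the 803 genes higher in Delta with COX7a RNAi (71.0%), and 482 of the 570 higher in Notch intra (84.6%), were called neither with COX7a RNAi nor with Delta against GFP.

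The 6 largest differences among the 394 genes ran in both directions. Hsc70-2 was higher with COX7a RNAi than with GFP (3.33 ± 0.22, adjusted p = 0.000226), as were ImpL2 (2.87 ± 0.12, adjusted p = 1.73e-05) and CG11893 (3.10 ± 0.33, adjusted p = 0.00156). ImpL2 read 12.56 and 12.65 in COX7a RNAi and 9.69 and 9.78 in GFP, so the 2 genotypes with the hairpin were alike and Notch intra lay near GFP. Akh, CG14075 and Cyp4p1 were also higher with the hairpin alone (2.68 ± 0.30, adjusted p = 0.00216, 2.62 ± 0.33, adjusted p = 0.00372 and 1.10 ± 0.18, adjusted p = 0.0127 in that order), but their levels in the combined genotype were low and those in Notch intra were high. CG14075 was at 9.45 and 8.52 in Notch intra and 4.98 and 5.55 in Delta with COX7a RNAi and at a mean of 8.02 in COX7a RNAi. For Cyp4p1 the COX7a RNAi mean was 6.15, against 5.05 in GFP. For Akh and CG14075 the genotype with the hairpin alone and Notch intra were high, and the combined genotype was not. For Cyp4p1 the level with the hairpin alone lay nearer the combined genotype, and only Notch intra was high.

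Delta against GFP called 207 genes (2.38%), 117 higher and 90 lower. Of the 117, 33 (28.2%) were called higher in Notch intra than in the combined genotype and 22 (18.8%) higher in the combined genotype, with a median difference of 0.07. Of the 90 genes lower with Delta, 41 (45.6%) were lower in Notch intra than in the combined genotype and 11 (12.2%) higher, with a median of -0.20. Over all tested genes 9.23% were called lower in Notch intra and 6.55% higher. Pearson's r across the 207 genes was 0.23. The count of 207 ranged from 74 to 110 without 1 of the GFP or Delta arrays, and was 433 with array weights. The gene bnl was lower with Delta (-1.86 ± 0.13, adjusted p = 0.00024) and lower again in Notch intra. The same order held for ara, a gene of the dorsal Iroquois complex (-0.47 ± 0.06, adjusted p = 0.00706, at 6.23 and 6.25 in Notch intra and 8.42 and 8.41 in Delta with COX7a RNAi), and for CG6739 (-0.51 ± 0.07, adjusted p = 0.00813, at 8.07 and 8.13 in Notch intra and 10.33 and 10.26 in Delta with COX7a RNAi). The amino acid transporter gene path was higher with Delta than GFP (0.82 ± 0.12, adjusted p = 0.0114) and lower in Notch intra than in the combined genotype. For its part krimp was lower with Delta (-0.61 ± 0.12, adjusted p = 0.0339) and higher in Notch intra than in the combined genotype.

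**Figure D4:**
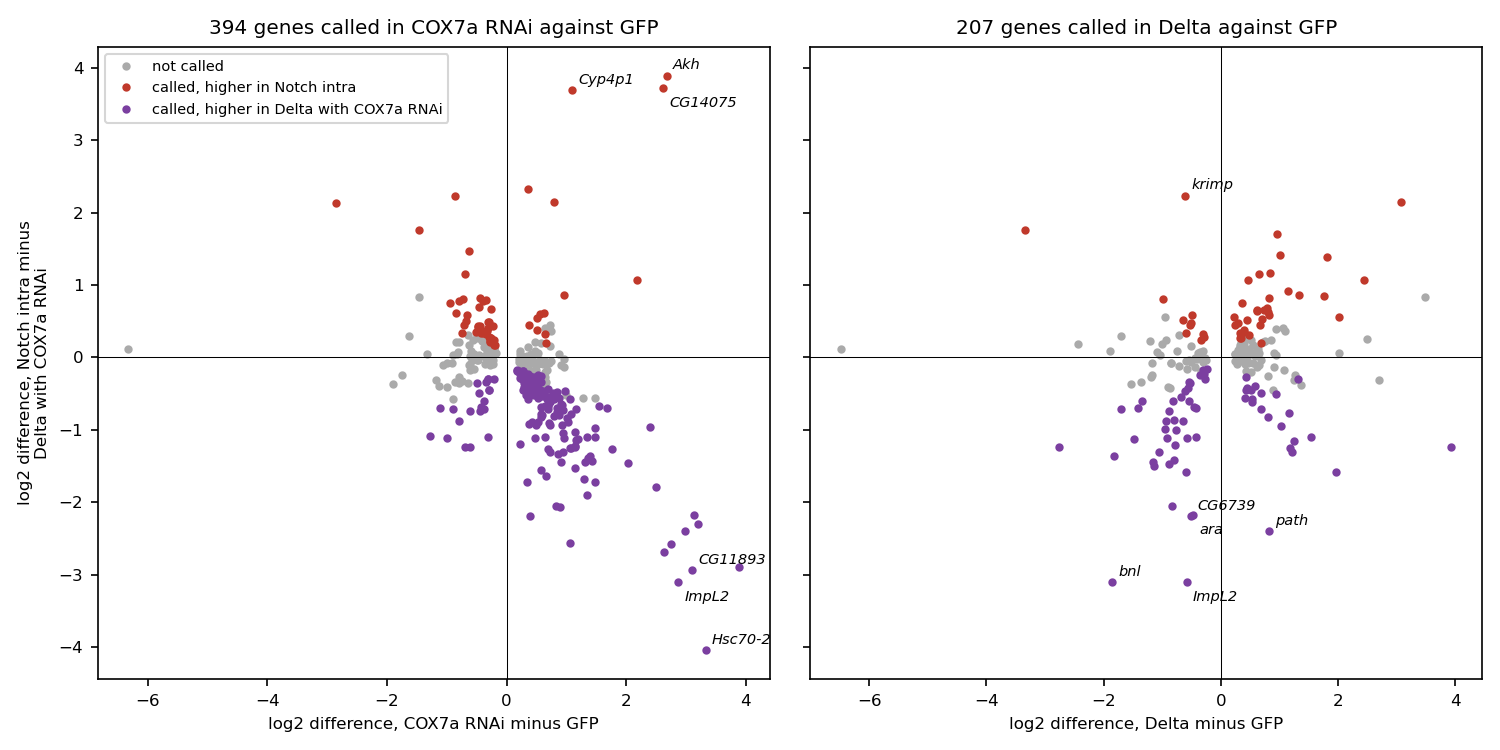
Log2 difference of Notch intra minus Delta with COX7a RNAi (vertical axis) against COX7a RNAi minus GFP for 394 genes (left) and Delta minus GFP for 207 genes (right), 1 point per gene called in the comparison on the horizontal axis. In the left panel 173 of 265 genes to the right of 0 are called higher in Delta with COX7a RNAi, and Akh, CG14075 and Cyp4p1 stand apart at the top.

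The position of GFP gives a reference point for each called gene. Among the 570 genes higher in Notch intra, the GFP mean lay between the genotypes and nearer Delta with COX7a RNAi for 272 (47.7%), between and nearer Notch intra for 105 (18.4%), below Delta with COX7a RNAi for 151 (26.5%) and above Notch intra for 42 (7.37%). Among the 803 lower in Notch intra the numbers were 246 (30.6%), 210 (26.2%), 224 above Delta with COX7a RNAi (27.9%) and 123 below Notch intra (15.3%). In 6 genes both genotypes lay at least 1 log2 unit from GFP on opposite sides. Lower in Notch intra were twz, CG17104, Tdc1 and twit, and higher were jhamt and Cpr67Fa2. The place of jhamt rests on the mean of GFP arrays at 3.85 and 7.92, 1 under both combined arrays and 1 above a Notch intra array, and its call was lost on removing any of 8 arrays. CG17104 was at 6.95 and 6.86 in Notch intra and 9.17 and 8.86 in Delta with COX7a RNAi, against 8.22 and 7.77 in GFP (-2.11 ± 0.15, adjusted p = 0.000101). Tdc1, a tyrosine decarboxylase gene (-2.60 ± 0.48, adjusted p = 0.00851), lost its call without Notch intra replicate 2 (adjusted p = 0.0649). The calls of twit (-2.57 ± 0.56, adjusted p = 0.0175) and of the cuticle gene Cpr67Fa2 (3.14 ± 0.76, adjusted p = 0.0275) were lost without Notch intra replicate 2 or Delta with COX7a RNAi replicate 2, and that of Cpr67Fa2 also without Notch intra replicate 1.

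Mitochondrial protein quality control genes were lower in Notch intra than in the combined genotype. Of 13 tested mitochondrial chaperones and proteases, 9 were called lower and 0 higher, against 9.23% and 6.55% of all genes, with a median of -0.34. The inner membrane protease gene Afg3l2 was at 10.66 and 10.65 in Notch intra and 11.52 and 11.22 in Delta with COX7a RNAi (-0.71 ± 0.08, adjusted p = 0.000966) and the import co-chaperone gene Roe1 at 9.10 and 9.01 in Notch intra and 9.71 and 9.71 in Delta with COX7a RNAi (-0.65 ± 0.08, adjusted p = 0.00124). Hsc70-5, the mitochondrial Hsp70 gene (-0.46 ± 0.08, adjusted p = 0.00585), and the prohibitin gene Phb2 (-0.35 ± 0.03, adjusted p = 0.000238) followed. These 4 genes were called throughout, and without Notch intra replicate 1 the list had 5 calls. Their means in COX7a RNAi, 11.43, 9.55, 12.97 and 13.53 in that order, stood above the GFP means of 10.74, 8.62, 12.35 and 13.17.

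Genes of glycolysis were lower in Notch intra as well, with 8 of 12 called lower, 0 higher and a median of -0.41. Pepck1, a gluconeogenic gene kept in this list, which makes phosphoenolpyruvate from oxaloacetate, was at 10.81 and 10.57 in Notch intra and 12.11 and 11.997 in Delta with COX7a RNAi (-1.37 ± 0.13, adjusted p = 0.00043), with means of 10.94 in GFP, 12.34 in COX7a RNAi and 9.12 in Delta. The gene of the rate-setting enzyme phosphofructokinase, Pfk, was at 9.29 and 9.21 in Notch intra and 10.50 and 10.27 in Delta with COX7a RNAi (-1.14 ± 0.17, adjusted p = 0.0035), with means of 9.47 in GFP, 10.63 in COX7a RNAi and 9.47 in Delta. Tpi (-1.04 ± 0.15, adjusted p = 0.00285) and Eno (-0.45 ± 0.05, adjusted p = 0.000683), for triosephosphate isomerase and enolase, were also called throughout. The list had 4 or 5 calls without either Notch intra array or Delta with COX7a RNAi replicate 1. For Pfk the 2 genotypes with the hairpin were high, and Notch intra lay near GFP.

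Amino acid supply showed a like direction. Among 16 cytosolic aminoacyl-tRNA synthetase genes, whose enzymes load tRNAs for translation, 11 were called lower in Notch intra and 0 higher, the median was -0.32 and all 16 differences were negative. AsnRS was at 10.72 and 10.80 in Notch intra and 11.65 and 11.47 in Delta with COX7a RNAi (-0.80 ± 0.06, adjusted p = 0.000134), and ValRS (-0.47 ± 0.06), HisRS (-0.45 ± 0.06) and TrpRS (-0.44 ± 0.04) followed. None of the 14 mitochondrial synthetase genes was called in either direction by limma, where 3 had an unadjusted p under 0.05, and the median was -0.03. The mitochondrial list had 1 or 2 calls under 6 other settings. Of 8 amino acid and trehalose transporter genes, 4 were called lower and 0 higher. These were Tret1-1, path (-2.40 ± 0.12, adjusted p = 1.4e-05), JhI-21 (-1.12 ± 0.08, adjusted p = 7.21e-05) and mnd (-1.09 ± 0.09, adjusted p = 0.000145), all called throughout. The path arrays read 9.39 and 9.52 in Notch intra and 11.85 and 11.86 in Delta with COX7a RNAi, with means of 9.39 in GFP, 12.37 in COX7a RNAi and 10.21 in Delta.

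In the ATF4 pathway, the transcriptional branch of the integrated stress response, 4 of 13 genes were called lower in Notch intra and 0 higher. AsnS, the asparagine synthetase gene, was at 6.12 and 6.08 in Notch intra and 7.67 and 7.42 in Delta with COX7a RNAi (-1.45 ± 0.18, adjusted p = 0.0013) and Nmdmc, a mitochondrial one-carbon enzyme gene, at 10.02 and 10.09 in Notch intra and 10.71 and 10.75 in Delta with COX7a RNAi (-0.67 ± 0.08, adjusted p = 0.00081). Gadd45 (-1.72 ± 0.32, adjusted p = 0.00859) lost its call without Notch intra replicate 2 (adjusted p = 0.0606). For AsnS the Notch intra level was below the GFP mean of 7.07 and the combined genotype lay between GFP and COX7a RNAi (8.38). PEK, which encodes an endoplasmic reticulum kinase upstream of ATF4, differed by -0.32 ± 0.08, and its call was lost on removing either GFP, either Notch intra or Delta with COX7a RNAi replicate 1 (adjusted p of up to 0.14).

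Other genes of the respiratory chain and of protein synthesis were called at shares below that of all tested genes. Apart from COX7A, the other 9 complex IV genes differed by -0.17 to -0.05 and were not called, with 95% intervals of -0.34 to 0.14. Of 54 genes of complexes I, II, III and V, 6 were called lower and 1 higher (13.0%, against 15.8% of all genes), with a median of -0.09, and 0 were called lower when arrays were centred on their median. Among 69 mitochondrial ribosomal protein genes 2 were higher and 4 lower, led by mRpL28 (-0.49 ± 0.04, adjusted p = 0.000127) and mRpL18 (0.32 ± 0.05, adjusted p = 0.00549). In the pyruvate entry and citric acid cycle list 1 of 13 was called, and in the proteasome list 0 of 31 by limma, with 7 at an unadjusted p under 0.05. Of 92 genes written for the cytosolic ribosomal protein list, 41 had a probe set assigned to them alone and 39 were tested. Of these 39, 3 were higher in Notch intra and 0 lower. All 3 have names ending in -like, namely RpL22-like (1.32 ± 0.14, adjusted p = 0.000525), RpL7-like (0.29 ± 0.07) and RpL24-like (0.20 ± 0.04). Whether their products belong to the mature ribosome was not examined. Without Notch intra replicate 2 or Delta with COX7a RNAi replicate 1 only 1 of the 3 calls was left.

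**Figure D5:**
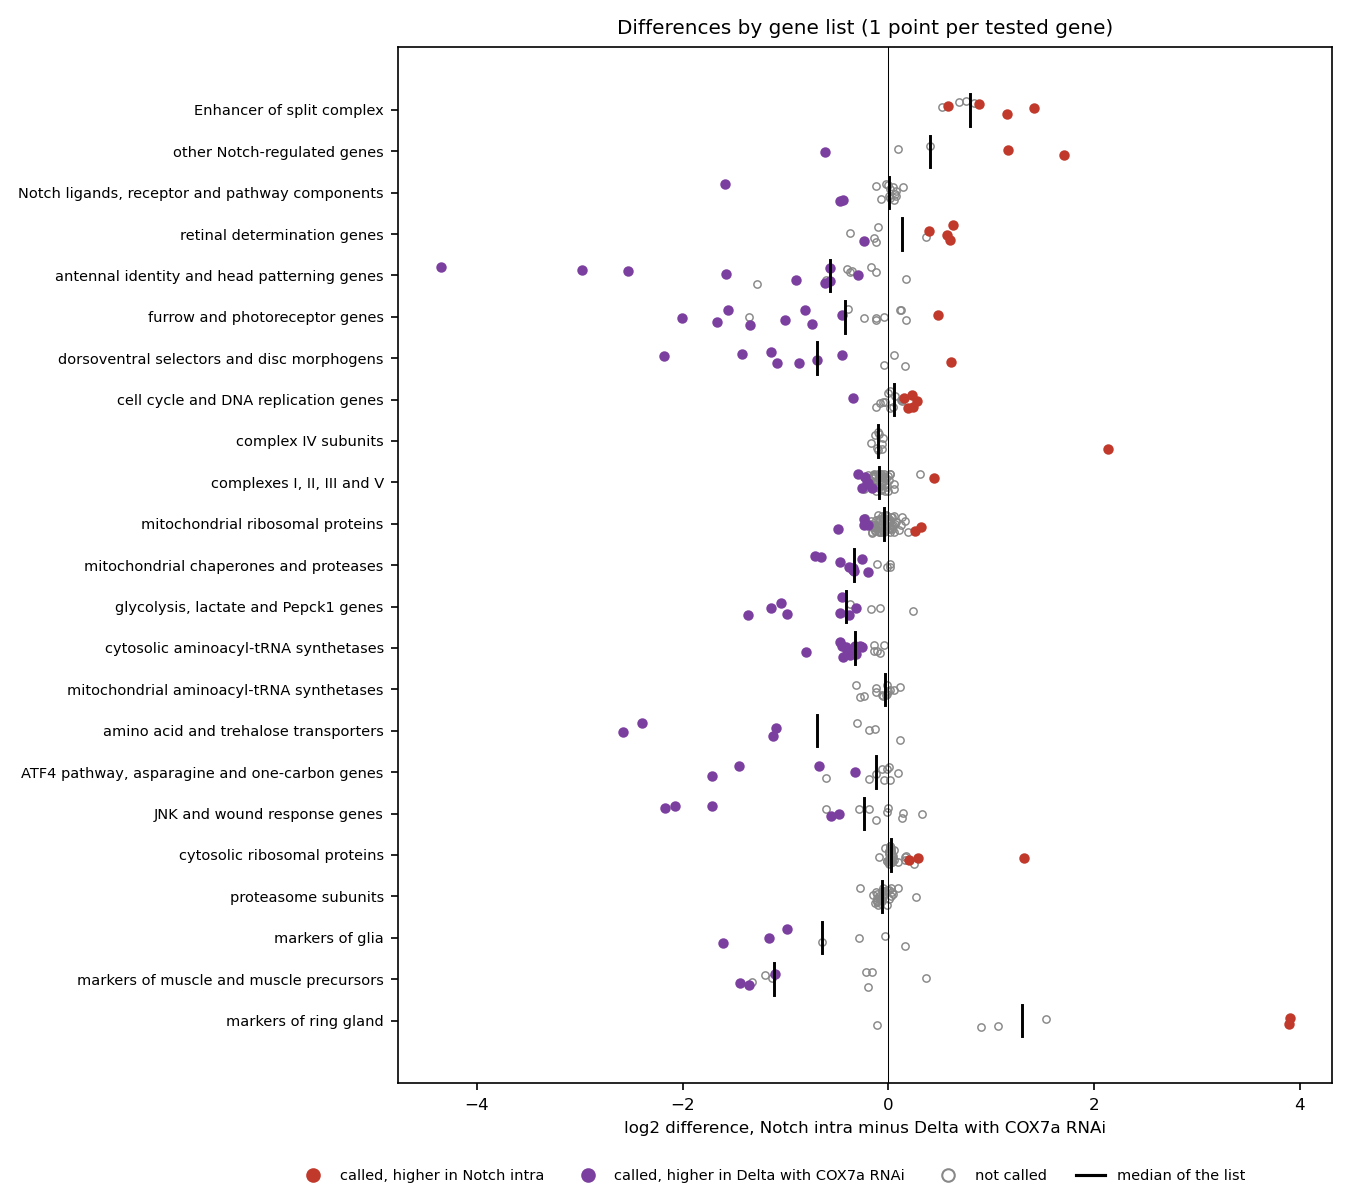
Log2 difference, Notch intra minus Delta with COX7a RNAi, for each tested gene of 23 lists, with a point per gene (vertical scatter within a list is for display) and a black bar at the list's median. Enhancer of split genes lie to the right with a median of 0.80, and the lists of mitochondrial chaperones, glycolysis and cytosolic aminoacyl-tRNA synthetases lie to the left with medians of -0.34, -0.41 and -0.32.

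Wound and growth-delay signals differed in the same direction. Of 14 JNK and wound response genes, 5 were called lower in Notch intra and 0 higher. Ilp8, a relaxin-like peptide that damaged or overgrowing discs secrete to delay metamorphosis, was at 7.26 and 6.85 in Notch intra and 9.29 and 9.16 in Delta with COX7a RNAi (-2.17 ± 0.24, adjusted p = 0.000785), with means of 5.80 in GFP, 8.93 in COX7a RNAi and 6.50 in Delta. The gene scaf, a JNK target gene, was at 7.61 and 7.53 in Notch intra and 9.91 and 9.37 in Delta with COX7a RNAi (-2.07 ± 0.16, adjusted p = 0.000149). The genes kay (-0.56 ± 0.11) and Jra (-0.48 ± 0.10), for the transcription factors Fos and Jun, had calls that were lost without either Notch intra array, and for kay also without Delta with COX7a RNAi replicate 1 (adjusted p of up to 0.0771 and 0.0892). A weaker kay probe set near background differed by 0.13. The JNK list had 3 and 2 calls without Notch intra replicate 1 and 2 and 8 calls without either COX7a RNAi array. Of the apoptosis genes 1 of 5 was called (20.0%, against 15.8% of all genes), the caspase gene Dronc (-0.52 ± 0.06, adjusted p = 0.000742). That list was written with 12 genes, of which rpr, hid, Drice, Diap1 and Xrp1 had no probe set assigned to them alone.

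In the insulin pathway 2 of 12 genes were higher and 2 lower in Notch intra. The lower ones were ImpL2 and Ilp8. Sdr, which encodes another secreted insulin-binding antagonist, was higher in Notch intra at 7.80 and 7.59 in Notch intra and 6.44 and 6.72 in Delta with COX7a RNAi (1.12 ± 0.18, adjusted p = 0.00397), so the antagonist genes ImpL2 and Sdr differed in opposite directions. The foxo call (0.43 ± 0.08, adjusted p = 0.0082) was lost without Notch intra replicate 1 (adjusted p = 0.0641).

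Detoxification genes differed in both directions. Among 32 glutathione S-transferase genes 5 were higher and 10 lower in Notch intra, with GstE6 (-1.68 ± 0.10, adjusted p = 2.82e-05) and GstE5 (-1.44 ± 0.08, adjusted p = 2.55e-05) on one side and GstD6 (1.83 ± 0.13, adjusted p = 9.13e-05) and GstD5 (1.09 ± 0.13, adjusted p = 0.000985) on the other. The GstD6 arrays read 5.87 and 5.82 in Notch intra and 3.94 and 4.09 in Delta with COX7a RNAi. Both GstD5 and GstD6 were under the floor outside Notch intra, so they could pass the filter through the Notch intra arrays alone. These neighbouring GstD genes are close paralogues, so their probes may share signal. Of 48 cytochrome P450 genes 4 were higher and 8 lower, and only 4 were called without either Notch intra array. Of the antioxidant genes 2 of 12 were called, a share near that of all tested genes (16.7%, against 15.8%). They were Sod3 (-0.60 ± 0.06, adjusted p = 0.000335) and Trxr1 (-0.31 ± 0.05, adjusted p = 0.00666), both lower in Notch intra. Hsc70-2 was the 1 called gene among 7 cytosolic heat shock genes (14.3%). Of 19 genes written for that list only 8 had a probe set assigned to them alone. The Hsp70 genes, Hsp83, Hsp22 and Hsp23 were among those without one, so the count does not cover them.

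Patterning genes differed between the genotypes in both directions. Of 10 retinal determination genes 4 were called higher, namely tsh (0.63 ± 0.06, adjusted p = 0.000267), toy (0.60 ± 0.05, adjusted p = 0.000149), ey (0.58 ± 0.06, adjusted p = 0.000691) and so (0.40 ± 0.05, adjusted p = 0.000836), all called throughout. The differences of the list were negative for 5 of 10 genes, with a median of 0.14. The ey arrays stood at 11.76 and 11.87 in Notch intra and 11.29 and 11.19 in Delta with COX7a RNAi, with means of 11.45 in GFP, 11.43 in COX7a RNAi and 11.40 in Delta, and the so arrays at 10.90 and 10.81 in Notch intra and 10.45 and 10.45 in Delta with COX7a RNAi. These 4 genes encode transcription factors that specify the eye field, and toy and ey are its Pax6 genes. Other toy probe sets differed by 0.67 (called) and, at a lower level but above the floor, by 0.17 (uncalled). The fifth call, Optix, was lower in Notch intra (-0.24 ± 0.07) and was lost under both other scalings and on removing any of 7 arrays, that is, either GFP, Delta or Notch intra array or Delta with COX7a RNAi replicate 1 (adjusted p of up to 0.203). In bulk samples of this kind, fewer cells of a type and less RNA per cell cannot be told apart.

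Antennal and head patterning genes were lower in Notch intra for 9 of 17, with 0 higher and a median of -0.57. Beside ss and Dll, Awh, a LIM homeobox gene, was called throughout at 7.70 and 7.67 in Notch intra and 8.60 and 8.55 in Delta with COX7a RNAi (-0.89 ± 0.08, adjusted p = 0.000203), although a second Awh probe set under the floor differed by 0.19. The spalt gene salm (-2.97 ± 0.72, adjusted p = 0.027) lost its call without any 1 of the 4 compared arrays (adjusted p of up to 0.149). Without 1 of these arrays the list had 3 to 5 calls, the fewest without Notch intra replicate 2. In GFP, COX7a RNAi and Delta the ss means were 7.96, 7.77 and 7.82, so Notch intra alone was low for this gene.

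Furrow and photoreceptor genes, which mark the front of retinal differentiation that crosses the eye disc, were called lower in Notch intra for 8 of 18 and higher for 1. The EGF receptor antagonist gene aos was at 8.03 and 7.92 in Notch intra and 9.34 and 9.73 in Delta with COX7a RNAi (-1.56 ± 0.12, adjusted p = 0.000116), with means of 9.11 in GFP, 9.68 in COX7a RNAi and 9.57 in Delta. The repressor gene hry, expressed just ahead of the furrow, was at 11.67 and 11.44 in Notch intra and 12.54 and 12.56 in Delta with COX7a RNAi (-0.999 ± 0.10, adjusted p = 0.000494), and sty, for an inhibitor of receptor tyrosine kinase signalling, at 10.10 and 10.03 in Notch intra and 10.88 and 10.86 in Delta with COX7a RNAi (-0.81 ± 0.06, adjusted p = 9.9e-05). The 1 gene higher in Notch intra was emc, which encodes a helix-loop-helix antagonist of proneural proteins (0.48 ± 0.05, adjusted p = 0.000525). The proneural gene sens (-2.004 ± 0.37, adjusted p = 0.00866) lost its call without Notch intra replicate 2 (adjusted p = 0.0676), and without that array the list had 4 calls.

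Dorsal selector genes were lower too. Of 11 dorsoventral selectors and morphogen genes, 7 were called lower and 1 higher, with a median of -0.69. The 3 Iroquois genes, which define the dorsal part of the eye, were all called throughout, ara at -2.18 ± 0.06, caup at 8.81 and 8.66 in Notch intra and 9.97 and 9.77 in Delta with COX7a RNAi (-1.14 ± 0.09, adjusted p = 0.000182) and mirr at 8.83 and 8.93 in Notch intra and 9.67 and 9.48 in Delta with COX7a RNAi (-0.70 ± 0.07, adjusted p = 0.000441). The dorsal head selector gene pnr was at 6.998 and 6.93 in Notch intra and 8.27 and 7.82 in Delta with COX7a RNAi (-1.08 ± 0.16, adjusted p = 0.00263) and the LIM homeobox gene tup at 6.35 and 6.03 in Notch intra and 7.84 and 7.38 in Delta with COX7a RNAi (-1.42 ± 0.17, adjusted p = 0.000985). The list had 5 calls without Notch intra replicate 2. The ara means were 8.81 in GFP, 8.69 in COX7a RNAi and 8.34 in Delta, so the 2 Notch intra arrays were the lowest of the series.

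Cell cycle and JAK/STAT genes were called in both directions. Of 18 cell cycle and DNA replication genes 5 were called higher and 1 lower in Notch intra, with Mcm5, a replicative helicase subunit gene (0.28 ± 0.04, adjusted p = 0.00364), and Cdk4 (-0.34 ± 0.04, adjusted p = 0.0015) called throughout. None of the 6 reached 1.5-fold, and the list had 2 or 3 calls without either Notch intra array or Delta with COX7a RNAi replicate 1. In the Fat and Hippo list 2 of 12 were called, fj (0.20 ± 0.05) and yki (0.15 ± 0.04). That share, 16.7%, was near the 15.8% of all tested genes. In the JAK/STAT list 1 of 9 was higher and 2 lower (33.3%, against 15.8% of all genes). Its largest difference was that of zfh2, a zinc finger homeodomain gene (-0.68 ± 0.19, adjusted p = 0.0427). The Hippo list had 0 or 1 call on removing any of 7 arrays, which were a GFP, Delta or Notch intra array or Delta with COX7a RNAi replicate 1, and so had the JAK/STAT list for 7, a GFP, Delta or Delta with COX7a RNAi array or Notch intra replicate 2. The zfh2 call was lost on removing any of these last 7 (adjusted p of up to 0.218). Of 13 ecdysone response genes 2 were called, both lower (15.4%, against 15.8% of all genes called in either direction). Of these Hr39, a nuclear receptor gene, was at 10.73 and 10.59 in Notch intra and 11.25 and 11.12 in Delta with COX7a RNAi (-0.52 ± 0.08, adjusted p = 0.00343) with means of 10.55 in GFP, 10.64 in COX7a RNAi and 10.62 in Delta.

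Markers of tissues that can adhere to a dissected disc also differed, and their part in the results above was not tested. Of 6 ring gland markers 2 were called, both higher in Notch intra (33.3%, against 15.8% of all genes), and the median was 1.30. Akh, made by the corpora cardiaca of this gland, was at 9.86 and 8.94 in Notch intra and 5.46 and 5.56 in Delta with COX7a RNAi (3.89 ± 0.30, adjusted p = 0.00013), at 8.66 and 8.01 in COX7a RNAi, 5.79 and 5.52 in GFP and 5.77 and 5.50 in Delta. The gene jhamt, the juvenile hormone enzyme gene of the corpora allata, was at 9.08 and 7.71 in Notch intra and 4.40 and 4.60 in Delta with COX7a RNAi (3.90 ± 1.10, adjusted p = 0.0468), and the GFP arrays read 3.85 and 7.92. The jhamt call depended on 8 arrays, since removing any array other than a GFP one ended it (adjusted p of up to 0.219). The summed level of the 6 markers was 10.30 and 11.42 in Notch intra, 8.80 and 9.03 in Delta with COX7a RNAi, 8.19 and 10.12 in GFP, 9.82 and 10.18 in COX7a RNAi and 9.02 and 9.27 in Delta. The 2 GFP arrays lay on either side of both arrays of the combined genotype.

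Glial markers were lower in Notch intra for 3 of 7 genes (42.9%, against 15.8% of all genes). Of these repo, the glial identity gene, was at 6.67 and 6.16 in Notch intra and 7.93 and 8.10 in Delta with COX7a RNAi (-1.60 ± 0.23, adjusted p = 0.00231). The others were moody at -1.16 ± 0.18 and wrapper at -0.98 ± 0.15, and all 3 were called throughout. Retinal glia enter the disc from the optic stalk. The summed level of the list was 13.31 and 13.38 in Notch intra and 13.37 and 13.46 in Delta with COX7a RNAi. Muscle and muscle precursor markers were lower for 3 of 10 (30.0%, against 15.8% of all genes), with a lowest difference of -1.45. Among the 3 was zfh1, at 5.35 and 4.98 in Notch intra and 6.60 and 6.45 in Delta with COX7a RNAi (-1.36 ± 0.20, adjusted p = 0.00315). The summed levels of the list were 11.76 and 11.83 in Notch intra and 12.31 and 12.44 in Delta with COX7a RNAi. Without Notch intra replicate 1 the muscle list had 1 call, and without either Delta array it had 6. Of 9 tracheal markers 2 were called, both lower in Notch intra (22.2%, against 15.8% of all genes). They were Gasp (-1.10 ± 0.06, adjusted p = 1.36e-05) and serp (-0.74 ± 0.10, adjusted p = 0.0015). The list had 4 negative differences of 9 and a median of 0.05. Its summed levels were 14.24 and 14.36 in Notch intra and 14.56 and 14.70 in Delta with COX7a RNAi. Of 4 hemocyte markers 1 was called, Pxn, whose call was lost in 8 of the 10 fits. No fat body or neuronal marker was called by limma out of 3 and 3, and 0 and 0 had an unadjusted p under 0.05.

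In the remaining lists, of 44 cuticular protein genes of the Cpr family 3 were higher and 3 lower in Notch intra (13.6%, against 15.8% of all genes). Those called throughout were led by Cpr66D (1.88 ± 0.31, adjusted p = 0.00498) and Cpr49Ac (-1.61 ± 0.15, adjusted p = 0.000332). Of 9 endoplasmic reticulum chaperone and stress genes 3 were called lower, and 0 were called without Delta with COX7a RNAi replicate 1 or either GFP or Notch intra array. In the nucleolar list 1 of 19 genes was called, and it was lost under both other scalings and without either Notch intra array or Delta with COX7a RNAi replicate 2. The hypoxia and FGF list had bnl as its 1 call among 5 genes (20.0%). Of 11 neuropeptide genes 2 were called (18.2%), Akh higher and sNPF (-1.23 ± 0.26, adjusted p = 0.0165) lower in Notch intra. The sNPF level was at or under the floor in all genotypes but Delta, where its mean was 8.13. The sNPF call was lost without Delta with COX7a RNAi replicate 2 or Notch intra replicate 2 (adjusted p of up to 0.104).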

How the data were processed

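Expression was measured on 1-colour Affymetrix arrays from 50 ng of total RNA per sample. The authors deposited log2 values, a single one for each probe set on an array. The tools, per the submitters' processing notes, were RMA, Affymetrix Expression Console and version 3.0.0.466 of Transcriptome Analysis Console, with no role given for any of them. RMA makes array distributions alike, so a shift shared by most genes would be removed. Genome build, detection calls and scan dates are not given in the sources used here, so no batch could be tested. Nothing in the labels says that replicates came from separate crosses, so p-values measure the spread between these samples, which may be partly technical.

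Of 18952 probe sets, 183 were controls and 13647 of the rest had 1 gene symbol in the platform annotation, which can be old. For each of 11982 genes the single-gene probe set of highest average level was used, and of 917 tested genes with several probe sets 5 had calls in opposite directions. The filter asked for 2 or more arrays above the 40th percentile of all values (4.66). A linear model with a mean for every genotype was fitted to all 10 arrays (5 residual degrees of freedom) in limma 3.58.1 (R 4.3.3), followed by eBayes with an intensity trend and two-sided tests, and was tested on simulated data. As groups hold 2 arrays, the error is pooled over the 5 genotypes. The members and the gene lists were chosen with earlier results of these data known, and 1 glutamate receptor gene was taken out of the transporter list after its value was seen. Named genes are COX7A, Delta, the 12 highest and 12 lowest called throughout, per list at most 4 called genes of largest change (those called throughout first), members of the Notch and complex IV lists, the 6 largest differences also called in COX7a RNAi or in Delta against GFP, and genes on opposite sides of GFP. Rankings were shortened from the end, and Optix was named after its value was seen. The genes mirr, sens and Jra were also named beyond the 4 of their lists.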

Additional observations from a re-analysis of the deposited data

How the results depend on the processing

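The alternatives were no filter or a floor at the 60th percentile, eBayes without trend or robust, a replicate block, a fit on the compared arrays alone, 2 other scalings, the mean of all probe sets, a 1.5-fold minimum, array weights and each array left out in turn. The count of 1373 genes between Notch intra and Delta with COX7a RNAi was 893 when only those 4 arrays were fitted and 528 at 1.5-fold or more, and 668 to 1536 with 1 array left out. For COX7a RNAi against GFP the count of 394 was 187, 157 and 127 to 443 under the same 3 settings, and for Delta against GFP the count of 207 was 366, 116 and 74 to 245, and 433 with array weights. The causes were not tested, except that the 1.5-fold minimum can only remove genes. The other alternatives kept these counts within 1.5 times. No label ties same-numbered arrays, which were not treated as pairs. Over the 10 pairs of genotypes the correlation of their deviations ran from -0.22 to 0.38, the latter between COX7a RNAi and Delta with COX7a RNAi, and was 0.05 between Notch intra and Delta with COX7a RNAi; with the replicate block 1408 genes were called. Of 110 called genes named in the text, 22 lost the call in at least 1 fit that left out an array and 33 under another alternative, 27 of these at the 1.5-fold minimum. No called gene changed direction. With 2 arrays per genotype, differences of low-expressed genes and those against a group under the floor are the least certain.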
